A study of Homo sapiens with 8 samples.

Results

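The 8 genes FHIT, WWOX, LRP1B, IMMP2L, CTNNA3, DLG2, NAALADL2 and CSMD1, long genes that lie at common fragile sites or resemble those that do and are called fragile site genes here, were followed through nascent RNA libraries of DLD-1 and HCT116, 2 human colorectal cancer cell lines. The genes were taken by symbol from the deposited count tables, where all 8 of 8 had a row among 18638 gene models. Common fragile sites are chromosome regions that form gaps and breaks when replication is slowed. Many lie inside very long genes that replicate late, and transcription across such a gene can still be under way when a replication fork arrives. Type II topoisomerases relax the DNA supercoils that build up around RNA polymerase II and replication forks, and long genes are known to depend on them.

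The 4 groups held 2 libraries each. All DLD-1 cells carried mAID-mClover-POLR2A (Tet-OsTIR1), that is a degron and a fluorescent tag on the catalytic subunit of RNA polymerase II (RPB1), and they were either untreated or given auxin. With TIR1 present, auxin sends the tagged protein to the proteasome. All HCT116 cells carried TOP2A-mAID, a degron on topoisomerase II alpha. The first HCT116 group was untreated, and the other was in addition TOP2B-/-, lacking topoisomerase II beta (spelled TO2B-/- in 1 label). The titles of the TOP2B-/- libraries name them as controls, whereas their treatment field and the names of their count columns give auxin. This group was therefore defined by its genotype, and genotype and auxin cannot be told apart in its comparison. Auxin was used at 500 µM for 14 h after 24 h of doxycycline. The labels do not say whether untreated cells received doxycycline, whether a line was 1 clone, or whether replicates were separate cultures, so p-values measure only the spread between these libraries. RNA was released from nuclei by factory-seq, in which caspases free the transcripts held at sites of transcription.

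Total counts were 62626875 and 36906755 in the DLD-1 controls, 14183633 and 10739622 after auxin, and 32129400 to 36491540 in HCT116. The 8 epithelial marker genes lay above the silent long genes described below in all 8 libraries. Their summed level was 398 to 480 RPKM in DLD-1 controls, 250 to 319 after auxin, 466 to 567 in HCT116 controls and 352 to 385 in TOP2B-/- cells. KRT18 was the largest part of each sum. The median of the 8 markers went the other way in DLD-1, from 23.01 and 19.99 RPKM in controls to 30.94 and 23.34 after auxin. There edgeR called 5 of the 8 lower and 0 higher, and EPCAM, CDH1 and KRT8 were not called. Of 12 markers of other cell types, 0 lay above silent long genes in DLD-1 controls and 1 did after auxin (PECAM1), where their summed level went from 0.167 and 0.741 RPKM to 4.43 and 5.62 RPKM. In HCT116 that sum was 2.44 to 2.81 RPKM, most of it COL1A1. TOP2B, the gene knocked out, had 6247 and 6799 reads in HCT116 controls and 4655 and 4313 in TOP2B-/- cells, a log2 fold change of -0.50 ± 0.04 (SE, n = 2 per group, edgeR adjusted p = 0.027). Reads over TOP2A and POLR2A do not report on the degrons, which act on the proteins.

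The fragile site genes are among the longest of the genome. Their models spanned 899.5 to 2172.3 kb against a median of 23.6 kb over all models, and DLG2, CSMD1, LRP1B and CTNNA3 ranked 4, 5, 8 and 9 in length. On GRCh38, FHIT lay at chr3:59749310-61251459 (minus strand), WWOX at chr16:78099413-79212667 (plus), IMMP2L at chr7:110663050-111562517 (minus) and NAALADL2 at chr3:174859321-175805640 (plus). LRP1B lay at chr2:140231427-142131701, CTNNA3 at chr10:65912518-67696191 and DLG2 at chr11:83455013-85627270, all on the minus strand. Counting covered whole gene models, introns included, so nearly every counted base of these genes was intronic.

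In all, 6 of the 8 genes had a RefSeq promoter window near the start of their counted model (GRCh38.p14, 250 bases before to 50 bases after a transcript start). The windows of 4 genes are shown, to set IMMP2L, which stood above the silent genes of both lines, and WWOX and NAALADL2, which stood above those of DLD-1, beside CTNNA3, which was near background in both lines. Each reads 5′ to 3′ along the gene, and capitals mark CG dinucleotides.
WWOX (chr16:78099404-78099703, plus strand): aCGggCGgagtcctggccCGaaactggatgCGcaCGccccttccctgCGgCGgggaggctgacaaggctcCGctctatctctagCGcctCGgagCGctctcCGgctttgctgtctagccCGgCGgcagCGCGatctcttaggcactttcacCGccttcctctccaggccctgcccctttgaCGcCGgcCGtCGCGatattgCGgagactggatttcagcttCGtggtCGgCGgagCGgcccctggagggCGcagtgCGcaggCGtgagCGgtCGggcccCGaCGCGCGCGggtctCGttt
IMMP2L (chr7:111562443-111562742, minus strand): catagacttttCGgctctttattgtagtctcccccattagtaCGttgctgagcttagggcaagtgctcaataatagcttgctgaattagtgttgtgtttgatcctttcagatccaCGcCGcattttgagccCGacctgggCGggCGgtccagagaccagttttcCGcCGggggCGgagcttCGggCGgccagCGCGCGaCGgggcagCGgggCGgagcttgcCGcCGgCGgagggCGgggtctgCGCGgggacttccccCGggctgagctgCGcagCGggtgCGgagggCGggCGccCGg
NAALADL2 (chr3:174859084-174859383, plus strand): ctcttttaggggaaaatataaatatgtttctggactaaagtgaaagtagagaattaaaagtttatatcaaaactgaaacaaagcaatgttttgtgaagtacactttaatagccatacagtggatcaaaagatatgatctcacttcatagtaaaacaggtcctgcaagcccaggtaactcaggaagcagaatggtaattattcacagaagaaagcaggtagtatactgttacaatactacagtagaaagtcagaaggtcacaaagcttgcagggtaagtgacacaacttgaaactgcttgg
CTNNA3 (chr10:67696146-67696445, minus strand): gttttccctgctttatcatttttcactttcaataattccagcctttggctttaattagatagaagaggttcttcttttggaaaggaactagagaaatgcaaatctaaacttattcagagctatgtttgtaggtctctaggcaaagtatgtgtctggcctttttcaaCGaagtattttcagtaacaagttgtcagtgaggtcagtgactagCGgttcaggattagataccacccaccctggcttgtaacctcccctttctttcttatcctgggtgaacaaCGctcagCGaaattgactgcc

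The WWOX window held 38 CG and the IMMP2L window 31, against a median of 14 over 35116 promoter windows of 300 bases, and 9.91% and 20.7% of all windows held at least as many. FHIT had 13 CG and DLG2 8, while CTNNA3 had 4 and NAALADL2 0. The GC content followed the same order, from 69.0% in WWOX through 65.0% in IMMP2L, 55.0% in FHIT, 46.0% in DLG2 and 40.7% in CTNNA3 to 35.7% in NAALADL2. Each window described is the nearest to the model start, and FHIT, CTNNA3 and DLG2 had others. Another DLG2 window, 1103 bases from the model start, held 22 CG. The letters TATAAA, searched on both strands, were found in the NAALADL2 window and in none of the other 5, and 11.5% of all windows held them. DLG2 windows farther from the model start, beginning at chr11:83682239 and chr11:83724876, did hold them. A match or its absence describes these letters only.

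Because an unexpressed gene of this length can still collect many reads, each level was set against silent long genes. For each line, these were the 241 gene models of at least 200 kb that were lowest in the controls of the other line (the lowest 20%), without the fragile site genes. Their median density was 1.31 and 3.10 reads per kb in the DLD-1 controls and 4.94 and 5.71 after auxin, although the auxin libraries were the shallowest. Spread over all counted bases, that density would account for 2.39% and 9.59% of the counts of the DLD-1 controls and for 39.9% and 60.8% after auxin. In HCT116 the median was 0.540 and 0.041 reads per kb in the controls and 0.395 and 0.894 in TOP2B-/- cells, so control 2 stood far below the other libraries. A gene was taken as above the silent long genes where it passed their 95th percentile in both libraries of a group. Since the set was chosen in the other line, it also held genes far above its own median. Its 95th percentile was 3.13 and 1.77 times the median in the DLD-1 controls and 17.9 and 223 times in the HCT116 controls. A gene not above this threshold is therefore not shown to be silent. Levels are given as RPKM, the reads per kb of counted length scaled to equal library totals.

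In untreated DLD-1 cells, FHIT, WWOX, IMMP2L and NAALADL2 were transcribed well above silent long genes, whereas LRP1B, CTNNA3, DLG2 and CSMD1 were not above them. The order by level was IMMP2L with 2.17 ± 0.14 RPKM (SD, n = 2, here and below), WWOX with 0.786 ± 0.073, NAALADL2 with 0.567 ± 0.017 and FHIT with 0.462 ± 0.002, and the values of these 4 genes did not overlap. The others followed with 0.070 ± 0.059 for CSMD1, 0.069 ± 0.053 for DLG2, 0.065 ± 0.054 for CTNNA3 and 0.047 ± 0.042 for LRP1B, and these 4 overlapped one another. IMMP2L ranked 1 of 257 gene models of at least 500 kb. In HCT116 controls IMMP2L again led with 1.02 ± 0.16 RPKM, ahead of FHIT with 0.445 ± 0.077 and WWOX with 0.215 ± 0.040, and then came DLG2 with 0.043 ± 0.014 and NAALADL2 with 0.029 ± 0.008, which overlapped each other. CSMD1, CTNNA3 and LRP1B closed the order with 0.012 ± 0.016, 0.010 ± 0.012 and 0.009 ± 0.012 RPKM. Between the controls of the 2 lines, the mean level of FHIT was close to equal (1.04-fold), while IMMP2L was 2.12-fold, WWOX 3.65-fold and NAALADL2 19.8-fold higher in DLD-1. The lines come from separate count tables, so cell line and experiment cannot be told apart and these ratios carry no test.

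**Figure D1:**
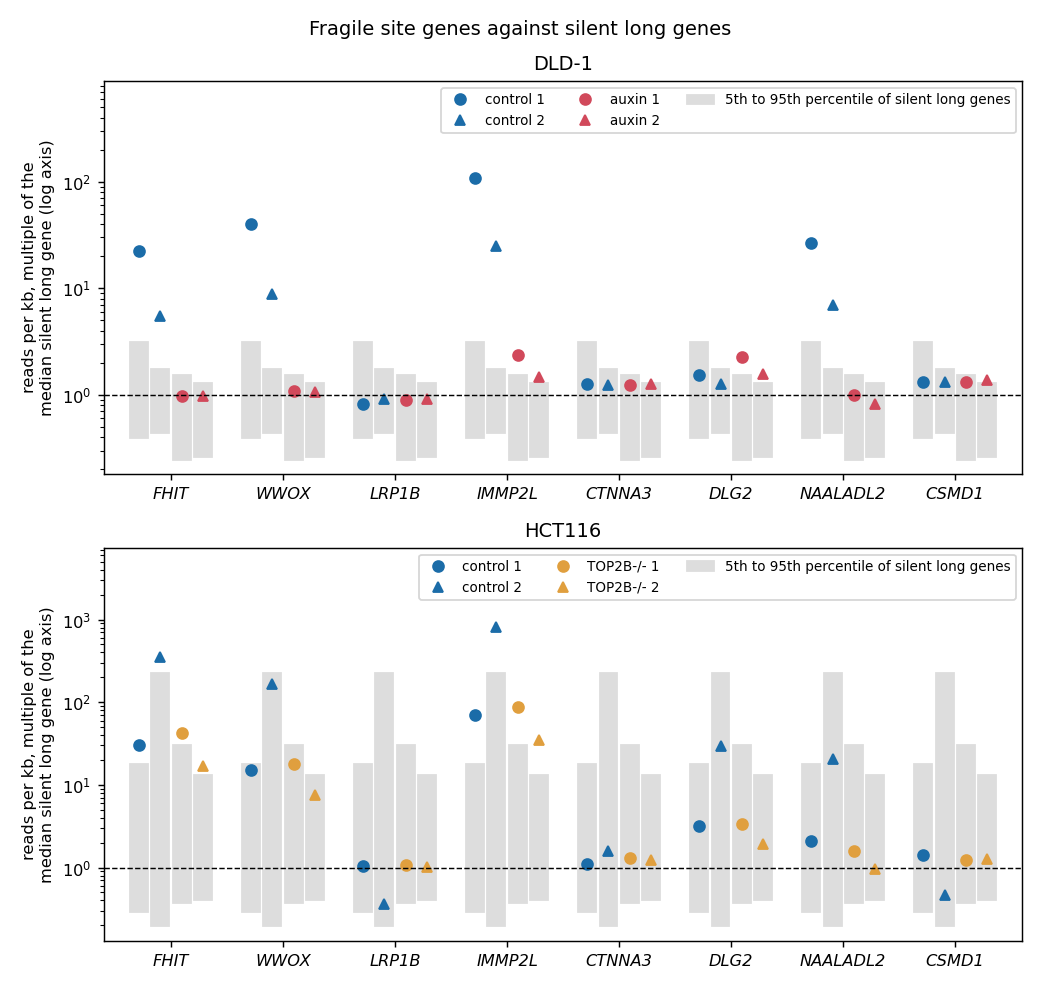
Reads per kb of each fragile site gene as a multiple of the median silent long gene of the same library (log axis), for the 4 DLD-1 libraries (top) and the 4 HCT116 libraries (bottom). Circles are replicate 1 and triangles replicate 2, and grey bars span the 5th to 95th percentile of the silent long genes of that library. FHIT, WWOX, IMMP2L and NAALADL2 stand 5.49 to 108 times above the median in DLD-1 controls and 0.83 to 2.36 times after auxin.

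The first comparison asked how transcription of these genes stood once RPB1 had been depleted. IMMP2L, WWOX, NAALADL2 and FHIT fell, and DLG2, CSMD1, LRP1B and CTNNA3 were called higher. All 8 of 8 genes passed edgeR's quasi-likelihood test at an adjusted p of 0.05, 4 in each direction, in a comparison where 67.3% of 17625 tested genes passed it, 32.2% as higher and 35.0% as lower. The median log2 fold change was 0.85 over the 8 genes and -0.06 over all genes tested. It was 2.47 over the silent long genes, of which 92.9% were called higher, so the counts of the fragile site genes are given below beside that background. Labels name no spike-in, and in bulk RNA fewer transcribing cells and less RNA per cell cannot be told apart. Where groups did not overlap, this is given below as description only, since how many of all tested genes separated was not counted.

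IMMP2L, a peptidase of the inner mitochondrial membrane, was the most transcribed of the genes and fell the most. It had 127719 and 68742 reads in the controls and 10513 and 7467 after auxin, or 2.27 and 2.07 RPKM against 0.824 and 0.773 RPKM. Both auxin libraries lay below both controls (log2 fold change -2.08 ± 0.23 SE, adjusted p = 0.0048, edgeR). Against the silent median its density went from 108 and 24.7 times to 2.36 and 1.45 times, so it was still above the 95th percentile of silent long genes (1.54 and 1.30 times) in both auxin libraries. Its rank among the 257 models of at least 500 kb went from 1 to 16.

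WWOX, an oxidoreductase with WW domains and a known tumour suppressor, had 58359 and 30167 reads in the controls and 6007 and 6795 after auxin. The level was 0.837 and 0.734 RPKM in controls and 0.380 and 0.568 RPKM after auxin, without overlap (log2 fold change -1.38 ± 0.26 SE, adjusted p = 0.015, edgeR). Its multiple of the silent median went from 40.0 and 8.75 to 1.09 and 1.07, which placed it inside the silent range.

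NAALADL2, which resembles the glutamate carboxypeptidases, had 32874 and 20237 reads in the controls and 4664 and 4466 after auxin. That was 0.555 and 0.579 RPKM against 0.348 and 0.439 RPKM, again without overlap (log2 fold change -1.17 ± 0.19 SE, adjusted p = 0.0099, edgeR). Its density was 26.5 and 6.91 times the silent median in controls and 1.00 and 0.83 times after auxin.

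FHIT, a hydrolase of dinucleoside polyphosphates and a known tumour suppressor, had 43627 and 25556 reads in the controls and 7310 and 8276 after auxin. Its RPKM was 0.464 and 0.461 in controls and 0.343 and 0.513 after auxin, so the groups overlapped on this scale. The edgeR fold change was -0.76 ± 0.24 (log2, SE, adjusted p = 0.044), the smallest of the 8, and with DESeq2 the adjusted p was 0.069. Against the silent median FHIT went from 22.2 and 5.49 times to 0.98 and 0.97 times, that is from above the 95th percentile to the middle of the silent genes. Its rank among long gene models went from 45 to 201 of 257.

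After the background was subtracted, FHIT and NAALADL2 had 0 reads left in both auxin libraries, which had been 41658 and 20905 for FHIT and 31633 and 17307 for NAALADL2 in the controls. WWOX had 502 and 441 reads left of 56900 and 26720, and IMMP2L had 6065 and 2333 left of 126540 and 65957. With a background taken from the 138 genes that were silent in both lines, which is lower, FHIT had 461 and 316 reads left and NAALADL2 349 and 0.

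LRP1B, CTNNA3 and CSMD1 stayed near the silent median, and their multiples of it hardly changed. LRP1B, a large receptor of the low-density lipoprotein receptor family, had 2057 and 5388 reads in the controls and 8486 and 9902 after auxin. Its multiple of the silent median was 0.83 and 0.92 before and 0.90 and 0.91 after auxin, and its log2 fold change was 2.47 ± 0.72 (SE, adjusted p = 0.036, edgeR), equal to the silent median of 2.47. The gene thus stayed slightly below the median silent gene in every DLD-1 library.

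CTNNA3 encodes alpha-T-catenin of cell junctions in the heart. It had 2779 and 6333 reads in controls and 10119 and 11902 after auxin, at 1.27, 1.23, 1.23 and 1.25 times the silent median, and a log2 fold change of 2.46 ± 0.67 (SE, adjusted p = 0.031, edgeR). CSMD1, a membrane protein with complement control domains (chr8:2935353-4994806, minus strand), had 3596 and 8464 reads in controls and 13439 and 16214 after auxin, at 1.33, 1.33, 1.32 and 1.38 times the silent median. Its log2 fold change was 2.48 ± 0.69 (SE, adjusted p = 0.032, edgeR). CSMD1 passed the 95th percentile of silent long genes in auxin 2 alone, where it lay at the 96.7th percentile, and CTNNA3 and LRP1B passed it in no DLD-1 library. After background subtraction CSMD1 had 896 and 2087 reads in controls and 3256 and 4460 after auxin, CTNNA3 had 595 and 1176 against 1883 and 2396, and LRP1B had 0 in all 4 libraries. In all 4 DLD-1 libraries the 3 genes thus lay between 0.83 and 1.38 times the silent median, while that median itself went from 1.31 to 5.71 reads per kb.

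DLG2, a scaffold protein of the postsynaptic density also named PSD-93, was the exception among the genes low in controls. It had 4336 and 8543 reads in the controls and 24514 and 19630 after auxin, or 0.032 and 0.107 RPKM against 0.796 and 0.841 RPKM. The log2 fold change was 2.95 ± 0.59 (SE, adjusted p = 0.017, edgeR), above the 95th percentile of the silent genes' fold changes, which was 2.83. Its multiple of the silent median was 1.52 and 1.27 in controls, below their 95th percentile of 3.13 and 1.77, and 2.28 and 1.58 after auxin, above the 95th percentile of 1.54 and 1.30. After background subtraction it had 1488 and 1817 reads in controls and 13773 and 7232 after auxin, and its rank among long gene models went from 111 to 14. When libraries were scaled to the median silent gene, the log2 fold change of DLG2 was 0.47 ± 0.97 and was not called (adjusted p = 0.75, edgeR).

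**Figure D2:**
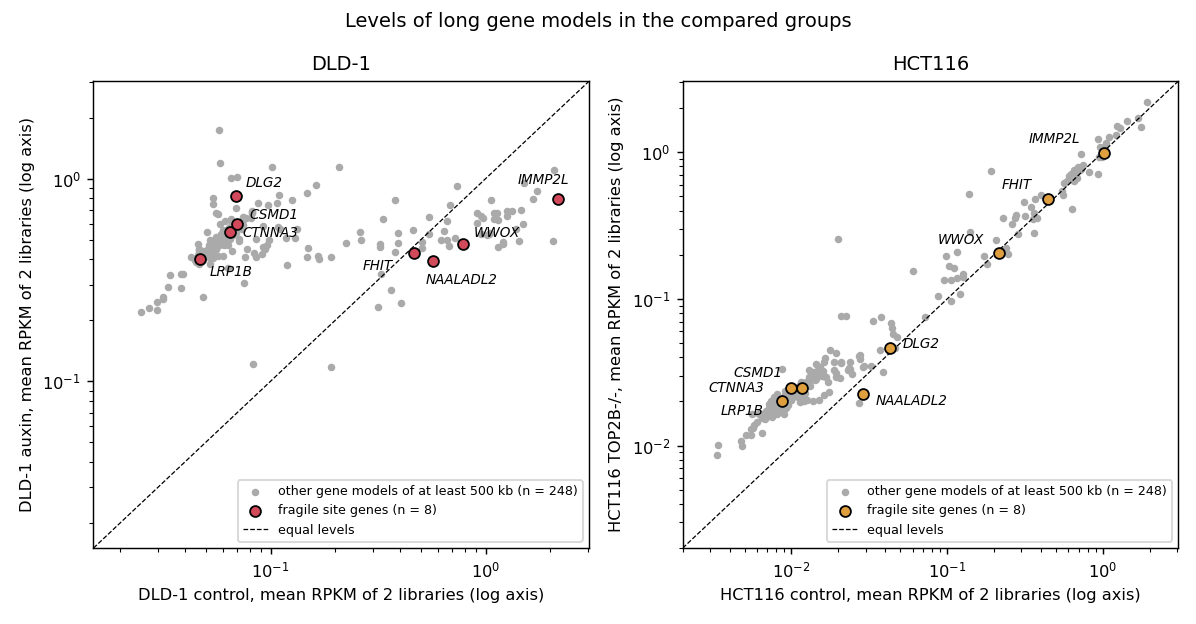
Mean RPKM of 2 libraries (log axes) in DLD-1 control against auxin (left) and in HCT116 control against TOP2B-/- (right), for the 8 fragile site genes (coloured, named) and 248 other gene models of at least 500 kb outside chromosome Y (grey), with a dashed line at equal levels. In each panel 1 model below the axes is not drawn. In DLD-1 the fragile site genes run from 0.047 to 2.17 RPKM in controls and from 0.393 to 0.819 RPKM after auxin, and in HCT116 IMMP2L, FHIT and WWOX lie close to the line while LRP1B, CTNNA3 and CSMD1 lie above it with most models at background.

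After auxin the 8 genes lay closer together. The highest of the 8 stood 131 and 27.0 times over the lowest in the DLD-1 controls and 2.62 and 1.91 times over it after auxin. Other long gene models did so as well, from 76.0 and 17.5 times between their 5th and 95th percentile to 3.60 and 2.53 times. After auxin DLG2 (0.819 ± 0.032 RPKM) and IMMP2L (0.799 ± 0.036) overlapped at the top, and the other 6 genes, from 0.393 to 0.597 RPKM, each overlapped with their neighbours in the order. The 8 genes took 0.440% and 0.470% of all counts in the controls and 0.600% and 0.788% after auxin.

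The calls depended on how libraries were scaled. With TMM scaling the 8 genes were called as above. With library totals alone, under which the median of all genes moved from -0.06 to 0.57, 5 of 8 genes were called, and FHIT (-0.11), WWOX (-0.73) and NAALADL2 (-0.53) were not. That fit called 10921 of 17625 genes tested, against 11855 with TMM scaling. With libraries scaled to the median silent long gene, the log2 fold changes were -5.12 ± 1.32 for IMMP2L, -4.50 ± 1.31 for WWOX, -4.20 ± 1.27 for NAALADL2 and -3.83 ± 1.25 for FHIT (edgeR adjusted p = 0.045, 0.045, 0.046 and 0.050), and FHIT did not pass. On that scale LRP1B (0.06), CTNNA3 (-0.01) and CSMD1 (0.02) were near 0 with an SE of 0.90 to 0.93, none of them called, and over the whole table the median was -3.05, with 160 genes called higher and 8543 lower. Leaving out a library mattered, and which of the 8 genes were called depended on the library left out. Over the 4 such fits log2 fold changes ran from -2.19 to -1.97 for IMMP2L and -1.65 to -1.05 for WWOX. They ran from -1.31 to -0.95 for NAALADL2 and -1.03 to -0.43 for FHIT. Those of LRP1B (1.78 to 3.84), CTNNA3 (1.81 to 3.66), DLG2 (2.35 to 3.995) and CSMD1 (1.82 to 3.72) were all positive. Each fit left 1 library alone in a group, so its calls are not read gene by gene.

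**Figure D3:**
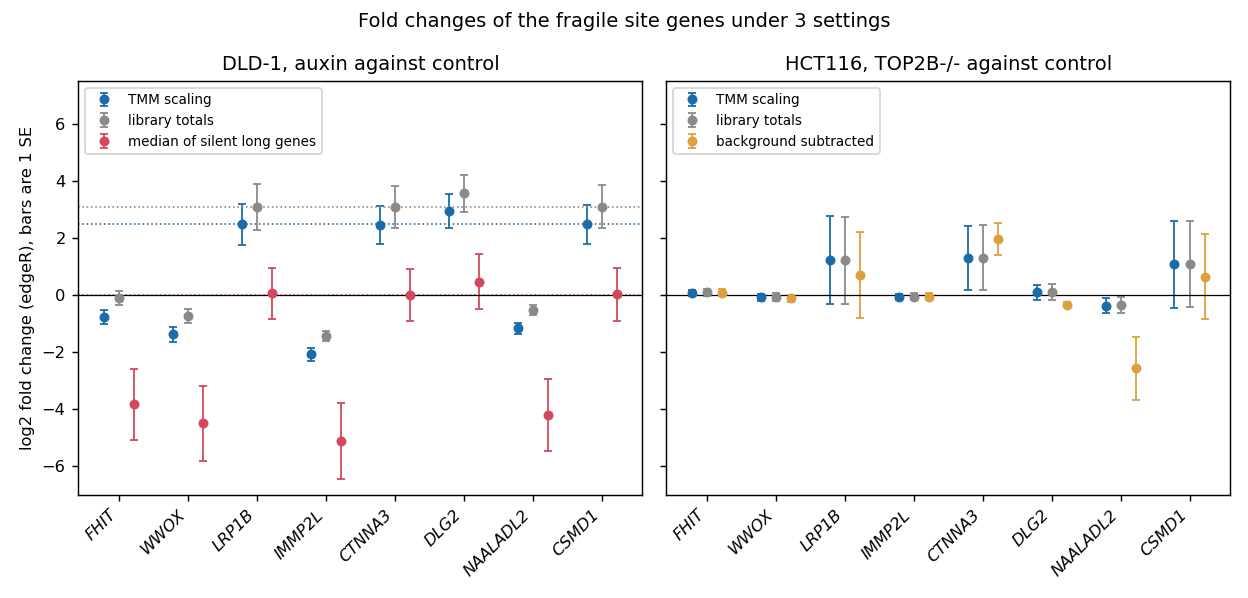
Log2 fold changes of the 8 fragile site genes from edgeR under 3 settings, with bars of 1 SE (n = 2 per group), for DLD-1 auxin against control (left) and HCT116 TOP2B-/- against control (right). Dotted lines at left mark the median of the silent long genes under each scaling (2.47, 3.09 and 0.01), and LRP1B, CTNNA3 and CSMD1 lie close to these lines under all 3.

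The second comparison asked whether these genes differed in TOP2B-/- TOP2A-mAID cells. FHIT, WWOX and IMMP2L were transcribed at like levels in both groups, and no fragile site gene was called. EdgeR called 0 of 8 genes, 0 of them at an unadjusted p under 0.05, and DESeq2 also called 0 of 8. Over the whole table edgeR called 3.41% of 15273 tested genes, and DESeq2 called 3295 genes. The CPM of the groups overlapped for all 8 genes, but how many of all tested genes overlapped was not counted. Between the 2 groups the median log2 fold change of the 8 was 0.08, that of all genes 0.03 and that of the silent long genes 1.09.

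IMMP2L had 34032 and 29851 reads in the controls and 31195 and 27843 in TOP2B-/- cells, a log2 fold change of -0.08 ± 0.10 (SE, adjusted p = 0.68, edgeR). FHIT had 24959 and 21428 against 25173 and 22712 reads (0.08 ± 0.11, adjusted p = 0.70, edgeR). WWOX had 9003 and 7584 against 7781 and 7618 reads (-0.07 ± 0.12, adjusted p = 0.73, edgeR). For these 3 genes the SE was the smallest of the set, and the signs changed when 1 library was left out, between -0.13 and 0.23 for FHIT, -0.30 and 0.09 for WWOX and -0.28 and 0.05 for IMMP2L. They lay at 70.0 and 814 times the silent median in controls for IMMP2L, 30.8 and 350 times for FHIT and 15.0 and 167 times for WWOX, and the high value of each pair was that of control 2, whose background was the lowest. FHIT and IMMP2L were above the 95th percentile of silent long genes in both groups. WWOX was below it in all 4 libraries, with that percentile at 17.9 and 223 times the median in the controls, and in TOP2B-/- cells WWOX stood at 17.7 and 7.65 times against a percentile of 30.8 and 13.2 times. In the controls WWOX did pass with silent genes of at least 300 kb, with the lowest 10% or 30%, with the genes silent in both lines and at the 90th percentile.

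DLG2 and NAALADL2 were low but above the median silent gene in the HCT116 controls. DLG2 had 3784 and 2623 reads against 2879 and 3776 (0.09 ± 0.27, adjusted p = 0.85, edgeR), at 3.22 and 29.6 times the silent median in controls and 3.35 and 1.94 times in TOP2B-/- cells. NAALADL2 had 1069 and 805 reads against 588 and 820 (-0.37 ± 0.27, adjusted p = 0.49, edgeR), at 2.09 and 20.9 times in controls and 1.57 and 0.97 times in TOP2B-/- cells. Less the background, NAALADL2 stood at 0.018 and 0.022 RPKM in controls and at 0.007 and -0.001 RPKM in TOP2B-/- cells. The groups then no longer overlapped, which was not counted over all genes. On counts less the background its log2 fold change was -2.57 ± 1.12 (adjusted p = 0.16, edgeR). With the genes silent in both lines as background, a setting added after seeing the data, it was -1.71 and passed the test (adjusted p = 0.028, edgeR). Those genes were chosen in part by low counts in these same HCT116 controls, which lowers the control background by construction. Their median was 0.415 and 0.022 reads per kb in controls, against 0.540 and 0.041 for the main set. In TOP2B-/- cells it was 0.322 and 0.717, against 0.395 and 0.894. The pass is therefore not read as a result. The fit with that background called more genes over the whole table than the 521 of the main fit. It used 676 and 784 reads of NAALADL2 in controls and 284 and 141 in TOP2B-/- cells. DLG2 less the background was 0.036 and 0.032 RPKM in controls and 0.027 and 0.026 RPKM in TOP2B-/- cells, also without overlap. Its log2 fold change on such counts was -0.34 ± 0.09 and did not pass (adjusted p = 0.058, edgeR).

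LRP1B, CTNNA3 and CSMD1 lay at 0.36 to 1.58 times the silent median in the HCT116 libraries. LRP1B had 1073 and 28 reads in the controls and 806 and 1722 in TOP2B-/- cells, CTNNA3 1006 and 107 against 864 and 1830, and CSMD1 1569 and 39 against 1019 and 2338. Control 2 was the low library for all 3, as it was for the silent genes. Their log2 fold changes were 1.22 ± 1.54, 1.30 ± 1.13 and 1.08 ± 1.52 (SE, adjusted p = 0.67, 0.56 and 0.70, edgeR), beside 1.09 for the silent genes. Without control replicate 1, which leaves control 2 and its low background alone in the group, their log2 fold changes were 5.57, 3.73 and 5.51. In TOP2B-/- cells they lay at 1.01 to 1.31 times the silent median.

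The models of 2 other genes lay inside fragile site genes on the opposite strand, LRRN3 (34.4 kb, neuronal leucine-rich repeats) in IMMP2L and LRRTM3 (175.5 kb, a synaptic adhesion protein) in CTNNA3. LRRN3 had 0.929 and 2.55 reads per kb in the DLD-1 controls, where IMMP2L around it had 142 and 76.4. It therefore stayed at 0.71 and 0.82 times the silent median inside a gene at 108 and 24.7 times. In HCT116 LRRN3 had 0.087 to 0.842 reads per kb within 31.0 to 37.8 for IMMP2L. LRRTM3 was near the silent median in all 4 DLD-1 libraries, at 0.86 to 1.00 times.

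Of 13 close relatives of the fragile site genes, 7 stood at 0.194 RPKM or more in all 4 control libraries and 6 at 0.114 RPKM or less. CTNNA1, the alpha-catenin of epithelia, stood at 2.91 and 2.58 RPKM in DLD-1 controls and 3.24 and 3.31 RPKM in HCT116 controls, with CTNNA3 at 0.103 RPKM or less. DLG1, a scaffold of epithelial cells, stood at 3.60 and 3.78 RPKM in DLD-1 controls and 2.43 and 2.26 RPKM in HCT116 controls, with DLG2 at 0.107 RPKM or less. LRP1, the endocytic relative of LRP1B, stood at 0.576 and 0.455 RPKM and at 0.503 and 0.480 RPKM. IMMP2L and its partner IMMP1L were both transcribed, at 2.27 and 2.07 against 2.20 and 2.30 RPKM in DLD-1 controls. HINT1, a histidine triad protein like FHIT, stood at 3.77 and 4.19 RPKM there. DLG3 and DLG4 made up the 7. The 6 low relatives were CTNNA2, CSMD2, CSMD3, NAALADL1, NAALAD2 and FOLH1, so CSMD1 had no relative on the list above that level, nor did NAALADL2, which was itself at 0.555 and 0.579 RPKM in DLD-1 controls.

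After auxin in DLD-1, 9 of 12 tested relatives passed the test, 5 as higher and 4 as lower, and NAALAD2 was too low to test. That is 41.7% as higher and 33.3% as lower, near the 32.2% and 35.0% over all genes tested. DLG1 (-2.33 ± 0.21), DLG3 (-1.99 ± 0.21), IMMP1L (-1.92 ± 0.18) and CTNNA1 (-0.83 ± 0.23) were called lower, given on the log2 scale. CTNNA1 overlapped between the groups, with 2.91 and 2.58 RPKM in controls and 2.68 and 2.11 RPKM after auxin. NAALADL1 (3.29 ± 0.90), CTNNA2 (2.46 ± 0.67), CSMD3 (2.45 ± 0.71), CSMD2 (2.34 ± 0.62) and DLG4 (1.35 ± 0.28) were called higher (edgeR adjusted p from 0.0042 to 0.035 for the 9). The median of the silent long genes was 2.47. CTNNA2, CSMD3 and CSMD2 thus moved about as much as that background, DLG4 less and NAALADL1 more. In TOP2B-/- HCT116 cells 0 of 12 passed edgeR's test, 2 at an unadjusted p under 0.05, and DESeq2 called 3. DESeq2 called 3295 genes over the whole table, and these small counts are not read as a result about the relatives.

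**Figure D4:**
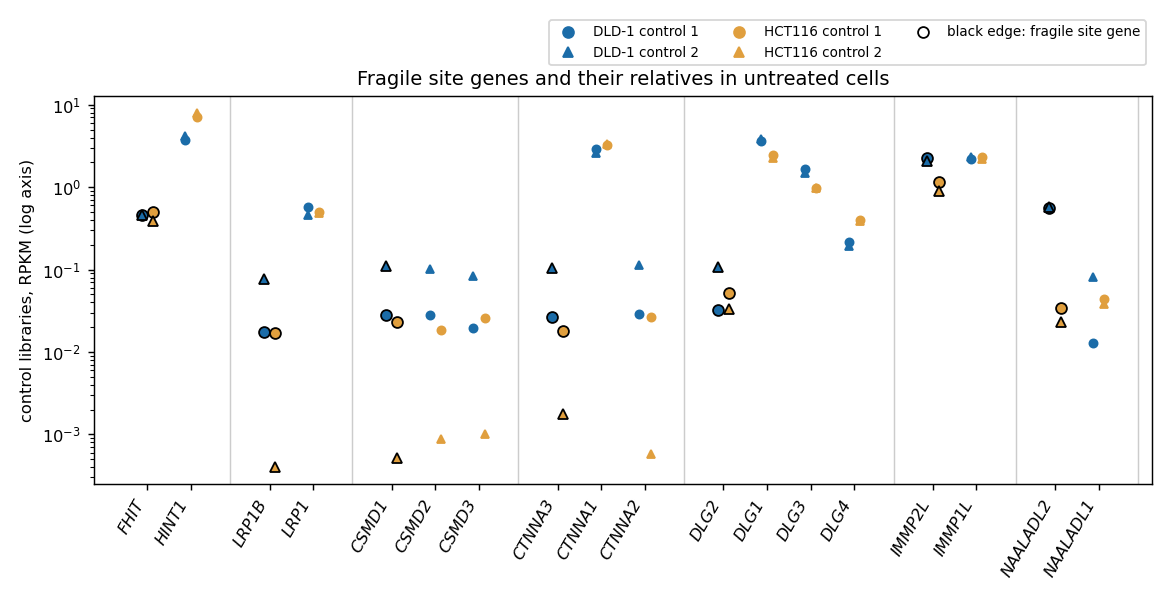
RPKM (log axis) of 7 fragile site genes (black edges) and their relatives in the control libraries of DLD-1 (blue) and HCT116 (orange), with circles for replicate 1 and triangles for replicate 2. CTNNA1 and DLG1 lie between 2.26 and 3.78 RPKM while CTNNA3 and DLG2 lie at 0.107 RPKM or less, and IMMP2L and IMMP1L lie together.

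The other 20 long genes listed at fragile sites split in the same way in DLD-1. Of these, 14 were called higher and 5 lower, with a median log2 fold change of 2.21. With TMM scaling, the 5 called lower were PARD3B (-1.99), EXOC4 (-1.51), RORA (-1.14), LARGE (-0.96) and PDE4D (-0.80). Their control levels of 0.484 to 1.24 RPKM were the 5 highest of the list. PDE4D overlapped between the groups, with 0.484 and 0.527 RPKM in controls and 0.378 and 0.529 RPKM after auxin. IL1RAPL1 (2.53 ± 0.73), ERBB4 (2.52 ± 0.70) and CNTNAP2 (2.51 ± 0.70), each near the silent median of 2.47, led those called higher (edgeR adjusted p = 0.035, 0.032 and 0.032), and NBEA was not called. Of 248 tested models of at least 500 kb, 186 were called higher and 43 lower, with a median of 2.41. These models leave out the fragile site genes followed above but include the 20.

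In TOP2B-/- HCT116 cells 2 of the 20 passed edgeR's test, both as higher, and DESeq2 called 4. Over the whole table DESeq2 called 3295 genes, and edgeR called 3.41% of all genes tested. EdgeR called 2.43% of the models of at least 500 kb other than the fragile site genes, and those models include the 20. IL1RAPL1, a synaptic receptor, went from 0.152 and 0.124 RPKM to 0.525 and 0.516 RPKM (log2 fold change 1.90 ± 0.09 SE, adjusted p = 0.025, edgeR). LARGE, a glycosyltransferase of dystroglycan, went from 0.157 and 0.122 RPKM to 0.284 and 0.293 RPKM (1.02 ± 0.11, adjusted p = 0.037, edgeR). Neither overlapped between groups, which was not counted over all genes. The neuronal marker SYT1 was called higher too (1.92 ± 0.07, adjusted p = 0.018, edgeR), and the epithelial markers CDH1 (-0.69 ± 0.05) and ESRP1 (-0.31 ± 0.03) were called lower (adjusted p = 0.026 and 0.038, edgeR).

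Factors that protect fragile sites during replication stood at 0.651 to 4.26 RPKM in the DLD-1 controls. In DLD-1, 12 of 19 tested factors were called lower after auxin and 0 were called higher, with a median log2 fold change of -0.90. Those called were 63.2% of the factors, against 67.3% of all genes tested in either direction and 35.0% as lower. MUS81 (-2.12 ± 0.23) and EME1 (-1.84 ± 0.26), the nuclease that cleaves stalled forks at fragile sites, and TOPBP1 (-1.88 ± 0.15), an activator of the ATR kinase, fell the most (edgeR adjusted p = 0.0048, 0.0077 and 0.0042). ATR itself fell as well (-1.59 ± 0.18, adjusted p = 0.0051, edgeR), and FANCD2, which marks fragile sites in mitosis, did not pass the test. In HCT116 edgeR called 0 of 19, 5 at an unadjusted p under 0.05, and DESeq2 called 4. DESeq2 called 3295 genes over the whole table, and these small counts are not read as a result about the factors. RTEL1 was not analysed here.

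Over the 8 libraries, the pattern of each gene was compared with that of all models of at least 100 kb by Pearson's r of log2 (RPKM + 0.01). LRP1B was most like DPYD and GRIA4, CTNNA3 like SPAG16 and RFX4, and CSMD1 like CNTN6 and GRIK1, all with r = 1.00. DLG2 was most like CAMK2B (r = 0.999) and DNAH2 (r = 0.998), and NAALADL2 like APLF (r = 0.999) and ADGRV1 (r = 0.998). WWOX was nearest to MGLL (r = 0.994) and MITF (r = 0.991), IMMP2L to EIF4G3 (r = 0.994) and ATG7 (r = 0.992), and FHIT to SRGAP2B (r = 0.968) and CWC27 (r = 0.912). Among the fragile site genes, LRP1B, CTNNA3 and CSMD1 correlated at 0.999 with one another and DLG2 with them at 0.956 to 0.966, while FHIT correlated with no other at more than 0.222. The 8 points share cell line, treatment and background density, so these values describe the libraries. SRGAP2B has near-identical copies in the genome, and its reads are uncertain.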

How the data were processed

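Factory-seq libraries of nascent RNA came from 4 groups of 2. The authors deposited raw counts of reads over 18638 RefSeq gene models per cell line. Per the labels, STAR, DESeq2 and hg38 were named for processing, and settings and strand use were not given in the sources used. The counted length was below the span in 1443 models. The authors' tables of changed genes hold fold changes, p-values and normalized values and were not used. The paper supplied with these data describes another experiment.

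The genes and gene lists were chosen with earlier results of these data known. Each comparison was fitted on its 4 libraries with edgeR 4.0.16 (R 4.3.3; quasi-likelihood test, filterByExpr, TMM, 2 residual degrees of freedom), two-sided, with Benjamini-Hochberg adjustment over all genes tested at 0.05. The SE is the log2 fold change over the root of F. An exact permutation test of 2 against 2 cannot go below p = 0.333, so none was used. Named genes were the 8 genes, the models that overlap them, their closest relatives, up to 3 called genes per list with the largest change, and the 2 most alike models. ATR, DLG3, DLG4, FANCD2, the 5 other long genes at fragile sites called lower and the targeted genes were added after their values were seen. Fits were tested on simulated counts. Libraries held 10739622 to 62626875 counts, and replicates per group (n = 2) limit precision. Alternatives were DESeq2 1.42.0, other scalings and filters, background-subtracted counts, other sets of silent genes, the replicate number as a block, a fit over all 8 libraries and leaving out each replicate. Background-subtracted counts are counts less those expected at the silent median density, never below 0. The settings with genes silent in both lines, with autosomes alone, with scaling to silent long genes and with crossed replicate numbers were added after seeing the data.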

Additional observations from a re-analysis of the deposited data

How the results depend on the processing

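In DLD-1, edgeR called 8 of the 8 fragile site genes with TMM scaling, and 5 with library totals alone, 4 with libraries scaled to all reads over silent long genes, 3 with scaling to their median, 4 in a fit over all 8 libraries and 0 to 7 when 1 library was left out. The count of all called genes was 11855, and 2393 to 12732 when 1 library was left out. Calls split into 5678 higher and 6177 lower with TMM, 7544 and 3377 with library totals, and 938 and 10044 with reads over silent long genes. CTNNA3 turned to -0.012 with scaling to the silent median. A library left alone in its group took its spread from the other group.

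In HCT116, edgeR called 521 genes, and 854 with a mean CPM of at least 1, 2521 with background-subtracted counts, 2018 with the genes silent in both lines as background, 5 in the fit over all 8 libraries (1196 at an unadjusted p under 0.05) and 0 to 2519 when 1 library was left out, while DESeq2 called 3295. The fragile site genes called were 0, and 1 with the genes silent in both lines as background and 0 to 3 when 1 library was left out. DLG2 turned to -0.34 with background-subtracted counts and to -0.24 with genes silent in both lines. When 1 library was left out, fold changes ran from -0.13 to 0.23 for FHIT, from -0.30 to 0.092 for WWOX, from -0.28 to 0.052 for IMMP2L and from -0.25 to 0.42 for DLG2.

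With the replicate number as a block, edgeR called 12963 genes and all 8 fragile site genes in DLD-1, and 0 genes in HCT116 (2177 at an unadjusted p under 0.05). Deviations of same-numbered libraries correlated at 0.56 in DLD-1 and at -0.82 in HCT116, where crossed numbers gave 1808 genes and 0 fragile site genes. With 2 pairs the numbers do not show a pairing.

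Genes above silent long genes in DLD-1 controls, DLD-1 auxin, HCT116 controls and TOP2B-/- cells numbered 4, 2, 2 and 2. They were 7, 4, 5 and 6 with genes silent in both lines as reference, which were also chosen by their low level in the line itself, and 1, 0, 0 and 0 at the 99th percentile. Except where a construction shows it, the cause of these differences was not tested.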
